A study of Mus musculus with 6 samples.

Results

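Immunoglobulin kappa variable (Igkv) genes were examined in RNA-Seq of mouse small intestinal mucosa. They were taken as every gene of the tables whose symbol starts with Igkv and a number, which gave 102 genes of 38561 in 18 V families. Of these, 96 are annotated by their identifier as V genes and 6 as pseudogenes in GENCODE M21. It lists another 58 Igkv identifiers that were not analysed here. The positions of 4 of those were counted under other identifiers, as given below. The mucosa was scraped from C57BL/6J mice aged 8 to 12 weeks, and RNA was pooled from 3 mice of both sexes for each library. There were 3 pools labelled Rbm47-IKO, for an intestine-specific knockout of the RNA-binding protein RBM47, and 3 pools labelled wt. The study's methods describe the line as made with a constitutive Vil1-Cre transgene. They cite wide expression of it in the intestine and scattered expression in the urogenital tract, and do not mention B cells. They name floxed Rbm47 fl/fl mice as the controls, whereas the labels say wild type, and they also give a wider range for the age and for the number of mice in a pool and name the jejunum. Because each library is a pool, V gene usage of a single mouse cannot be read from it.

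A kappa light chain is made when a B cell precursor joins 1 of its many V gene segments to 1 of a few joining (Igkj) segments upstream of the single constant gene, Igkc. V segments lie in both orientations along the locus, and families group segments of similar sequence. In the gut, most of this RNA comes from plasma cells of the lamina propria, which pair kappa or lambda light chains with alpha heavy chains and secrete IgA. A clone of plasma cells carries 1 productive kappa rearrangement, so the share of each V segment reflects which clones are present and how much RNA each makes.

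The sequences shown first are those of the genes on which the results below turn. The V exon of Igkv8-27 (ENSMUSG00000076580) was counted over 300 bases at chr6:70171809-70172108 (GRCm38, reverse strand), as a model of 1 exon. That stretch is printed 5′ to 3′ from GENCODE M21, with the codon of the conserved cysteine that opens the CDR3, the antigen-contacting loop made at the V-J junction, in capitals. This is the germline sequence, not one read from the pools.
Igkv8-27: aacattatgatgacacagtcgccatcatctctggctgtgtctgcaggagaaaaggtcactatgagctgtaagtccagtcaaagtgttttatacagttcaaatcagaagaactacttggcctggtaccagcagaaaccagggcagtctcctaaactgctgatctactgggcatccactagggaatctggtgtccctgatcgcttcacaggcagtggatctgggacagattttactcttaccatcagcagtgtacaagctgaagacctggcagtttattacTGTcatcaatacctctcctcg

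The last 30 germline bases of that exon and of related or abundant genes show how their ends differ, again with the cysteine codon in capitals. The first 7 genes belong to family 8, and the last 4 are among the first 3 genes of at least 1 pool.
Igkv8-27: gtttattacTGTcatcaatacctctcctcg
Igkv8-30: ttacTGTcagcaatattatagctatcctcc
Igkv8-28: ttacTGTcagaatgatcatagttatcctcc
Igkv8-24: cttcTGTcagcaacattatagcactcctcc
Igkv8-21: ttattacTGCaagcaatcttataatcttcc
Igkv8-19: ttacTGTcagaatgattatagttatcctcc
Igkv8-16: tttcTGTcagcagcatttacacattcctcc
Igkv15-103: ctacTGTcaacagggtcaaagttatcctct
Igkv6-23: tttcTGTcagcaatatagcagctatcctct
Igkv10-96: ctttTGCcaacagggtaatacgcttcctcc
Igkv11-106: ttatTGTctacagtatgataatcttctacc

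These ends lie at chr6:70171809-70171838 for Igkv8-27, chr6:70117061-70117090 for Igkv8-30, chr6:70143593-70143622 for Igkv8-28 and chr6:70216858-70216887 for Igkv8-24. They lie at chr6:70314895-70314924 for Igkv8-21, chr6:70340876-70340905 for Igkv8-19 and chr6:70386672-70386701 for Igkv8-16. Those of Igkv6-23 (chr6:70260409-70260438) and Igkv10-96 (chr6:68631963-68631992) are also on the reverse strand, and that of Igkv15-103 (chr6:68437896-68437925) is on the forward strand. After the cysteine codon the exon of Igkv8-27 has 18 bases, Igkv8-21 has 20, and the other genes shown have 23. Among all Igkv genes with such a codon found, 65 had 23 bases there and 22 had 25. Across the V exon Igkv8-27 was 90.0% identical to Igkv8-19 and Igkv8-28 over 311 aligned bases, 89.7% to Igkv8-30 and 88.4% to Igkv8-21. Of its 50-base windows, 8.36% occurred in another transcript of the annotation, most often that of Igkv8-21. Over the Igkv genes the median of this share was 24.8%, and 16 genes shared over 50% of their windows, so the counting of reads between such genes is uncertain.

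Of the 102 entries, 4 carry a position in the tables that differs from the GENCODE M21 position of their identifier. The entry for Igkv11-106 (ENSMUSG00000076530) was counted at chr6:68736302-68736583 on the reverse strand, where GENCODE M21 places Igkv19-93, a V gene. The end printed above for it is that of Igkv19-93, at chr6:68736297-68736326. The entries for Igkv4-51, Igkv4-83 and Igkv13-85 were counted at the positions of Igkv4-73, Igkv4-56 and Igkv12-47, which are annotated as pseudogenes. All remain Igkv genes, and each is named here by its identifier.

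Total counts per pool were 31560320 to 38951830, and enterocyte markers such as Vil1, Apoa4 and Fabp2 summed to 51557 to 56792 CPM (counts per 1e6 of the TMM-scaled library size). The targeted gene, Rbm47, went against the labels in its gene-level count, which was no lower where they say knockout. Its gene-level CPM was 602.7, 624.6 and 619.8 in the pools labelled Rbm47-IKO and 459.8, 449.9 and 472.1 in the wt pools (log2 fold change 0.42 ± 0.10 SE, edgeR adjusted p = 0.075). These counts sum over all exons, so they do not measure a deleted exon on its own. The paper itself reports negligible Rbm47 mRNA and protein after the deletion, and loss of RBM47 staining in villi and crypts. Every direction below is given for the pools as labelled. Smooth muscle genes set pools of both labels apart, with summed CPM of 361, 586 and 3302 in the pools labelled Rbm47-IKO and 90.7, 2803 and 313 in the wt pools.

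The first comparison asked whether kappa V gene RNA as a whole differed between the labels. Igkv genes summed to 31.3, 79.1 and 81.5 CPM in the pools labelled Rbm47-IKO and to 129, 97.6 and 89.9 CPM in the wt pools. The lowest wt pool was above the highest pool labelled Rbm47-IKO, and pool 1 labelled Rbm47-IKO lay far below its group. The group means were 64.0 ± 28.3 and 106 ± 20.9 CPM (SD, n = 3 pools each), a ratio of 0.606 (log2 −0.72; exact two-sided permutation test, p = 0.1, the smallest value that 3 against 3 pools allow). Without pool 1 labelled Rbm47-IKO the log2 ratio was −0.40. Without Igkv8-27 it was −0.83, since that gene went the other way. In bulk tissue, fewer kappa-expressing cells and less kappa RNA per cell cannot be told apart. Beyond the pooling of mice, the sources do not say how independent the pools are, so p-values measure the spread between these pools.

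Igkc, the constant gene that kappa transcripts share, had 49.7, 103 and 104 CPM in the pools labelled Rbm47-IKO and 193, 143 and 144 CPM in the wt pools. The pools did not overlap, but its log2 fold change of −0.90 did not pass the test (edgeR adjusted p = 0.154). Per 100 Igkc counts there were 63.1, 76.8 and 78.1 Igkv counts in the pools labelled Rbm47-IKO and 67.1, 68.4 and 62.6 in the wt pools. These ranges overlapped (log2 ratio 0.14, exact permutation p = 0.3). The overlap rested on pool 1 labelled Rbm47-IKO, without which both remaining pools were above all wt pools (log2 ratio 0.23). That pool was picked from these same values, so no test is given without it.

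**Figure D1:**
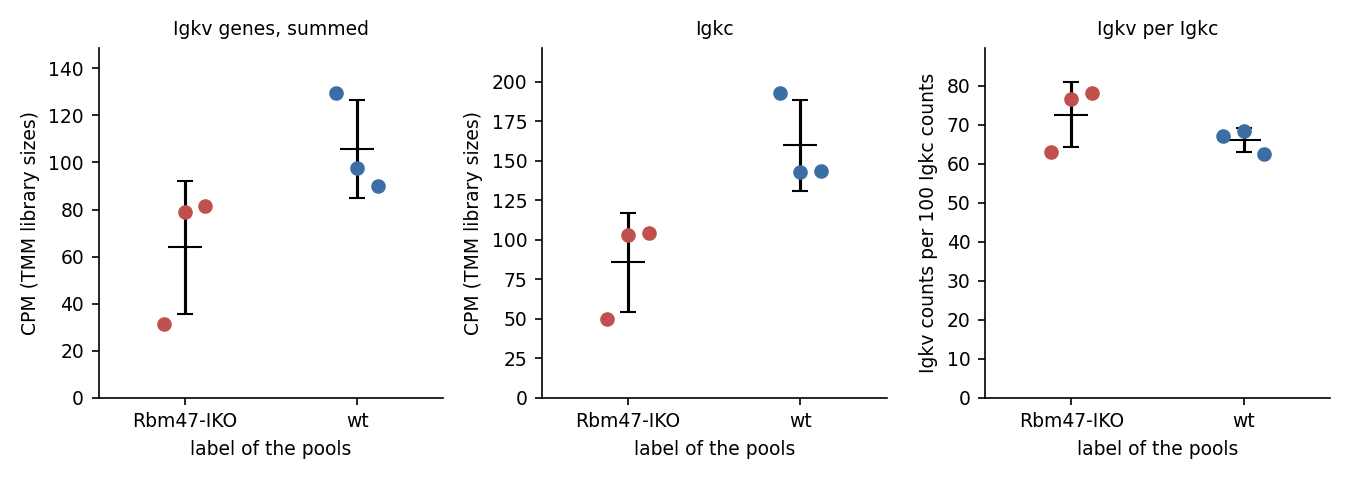
Summed Igkv genes and Igkc in CPM (y axes of the first 2 panels) and Igkv counts per 100 Igkc counts (last panel) for the 3 pools of each label, each point 1 pool and each bar the mean ± SD. Igkv sums of 31.3 to 81.5 CPM in the pools labelled Rbm47-IKO lie below the 89.9 to 129 CPM of the wt pools, while the ratio to Igkc overlaps.

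Gene by gene, 57 Igkv genes passed the filter on low counts and 45 did not. Of those 45, 8 had no count in any pool and 37 had at least 1, with at most 41 counts in a pool and 4.46% of all Igkv counts together. Of the 57 tested genes, 1 rose in the pools labelled Rbm47-IKO, where 1.45% of all 16425 tested genes rose. None fell, where 1.25% of all tested genes fell (edgeR quasi-likelihood test, Benjamini-Hochberg adjusted p of 0.05 or less). At an unadjusted p under 0.05 in edgeR there were 12 of the 57, against 16.8% of all tested genes. Of them, 11 were lower, against 8.21%. The 11 include Igkv4-86 and Igkv4-50, which passed the filter only through the wt pools, so the filter fixed their direction. The count of lower genes is therefore a description, and both genes also count among those with a log2 fold change below 0. DESeq2, which gave an adjusted p for 38 Igkv genes, called 4 of them, against 7.95% of all genes with one, and 3 of these were lower, against 3.62%. Log2 fold changes were below 0 for 44 of the 57 (77.2%, against 50.7% of all tested genes), with a median of −0.63 against −0.0059 over all genes. Refitted over the Igkv genes that then passed the filter, the median was −0.28 without pool 1 labelled Rbm47-IKO (63 genes). It was −1.10 without pool 3 labelled Rbm47-IKO (62 genes).

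Pools of the 2 labels did not overlap in CPM for 9 of the 57. Lower in every pool labelled Rbm47-IKO were 7, which is 12.3% of the 57, where 11.6% of all tested genes were. They were Igkv15-103, Igkv11-106, Igkv8-30, Igkv4-86, Igkv4-50, Igkv5-39 and Igkv1-117. Of these, 2 (Igkv4-86 and Igkv4-50) passed the filter on low counts only through the wt pools and so had to be lower, and the other 5 had pools of both labels at the level the filter asks. Higher in every such pool were 2, Igkv8-27 and Igkv9-124, which is 3.51% of the 57, where 11.7% of all tested genes were. In CPM the share of Igkv genes without overlap was thus below the background in the higher direction. In the lower direction the filter fixed the order for Igkv4-86 and Igkv4-50, so no conclusion is drawn from that comparison. As length-scaled shares of each pool's Igkv total (counts per kilobase of the gene model), 2 of the same 57 genes were lower without overlap in the pools labelled Rbm47-IKO (Igkv8-30 and Igkv4-86) and 6 were higher. Igkv8-27, Igkv9-124, Igkv4-55, Igkv14-111 and Igkv4-61 were among the 6. Such shares are defined within Igkv only, so they have no background over all genes.

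Igkv8-27, whose V exon is printed above and which lies 554 kb before Igkc, was the gene that rose. Its counts were 106, 219 and 196 in the pools labelled Rbm47-IKO and 9, 23 and 23 in the wt pools. In CPM this was 3.06, 5.78 and 6.00 against 0.265, 0.606 and 0.631, so the lowest pool labelled Rbm47-IKO was well above the highest wt pool. The log2 fold change was 3.29 ± 0.43 (SE; edgeR adjusted p = 0.0139), which ranked 10 among all tested genes. With a pool left out in turn it stayed between 2.99 and 3.54, and the adjusted p of edgeR lay between 0.0237 and 0.0953. The call was lost without pool 2 labelled Rbm47-IKO (adjusted p = 0.0953) and without pool 3 labelled wt (adjusted p = 0.0621).

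As a length-scaled share of the pool's Igkv total, Igkv8-27 made up 10.9, 8.28 and 8.35% in the pools labelled Rbm47-IKO. In the wt pools it made up 0.232, 0.710 and 0.806%. It was the leading Igkv gene in each of the 3 pools labelled Rbm47-IKO by this share, and in none of the wt pools. By counts alone it led pools 1 and 2, and Igkv6-23 led pool 3 with 202 counts against 196.

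The other genes of family 8 are a set made by leaving out the gene that rose, so their sum is given with no test. Together they had 2.17, 4.09 and 5.79 CPM in the pools labelled Rbm47-IKO and 17.7, 8.62 and 6.39 CPM in the wt pools. Igkv8-27 alone therefore held 58.6, 58.6 and 50.9% of the family's counts in the pools labelled Rbm47-IKO and 1.47, 6.57 and 8.98% in the wt pools. None of the other members was higher in every pool labelled Rbm47-IKO.

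Igkv8-30, 89.7% identical to Igkv8-27 and on the same strand, 609 kb before Igkc, had 13, 42 and 34 counts in the pools labelled Rbm47-IKO and 216, 97 and 113 in the wt pools. All 3 wt pools were higher, with a log2 fold change of −2.24 ± 0.51 (SE; edgeR adjusted p = 0.0686). DESeq2 gave an adjusted p of 0.000136. Of the counts of this pair, Igkv8-27 took 89.1, 83.9 and 85.2% in the pools labelled Rbm47-IKO and 4.0, 19.2 and 16.9% in the wt pools. Igkv8-19 had 16, 26 and 22 counts against 133, 39 and 22, and Igkv8-24 had 24, 29 and 82 against 142, 88 and 60. In both genes the groups overlapped. Igkv8-28, one of the genes most like Igkv8-27 in sequence, had 10, 31 and 23 counts against 47, 30 and 16, with a log2 fold change of −0.52 ± 0.54 (SE; edgeR adjusted p = 0.730).

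**Figure D2:**
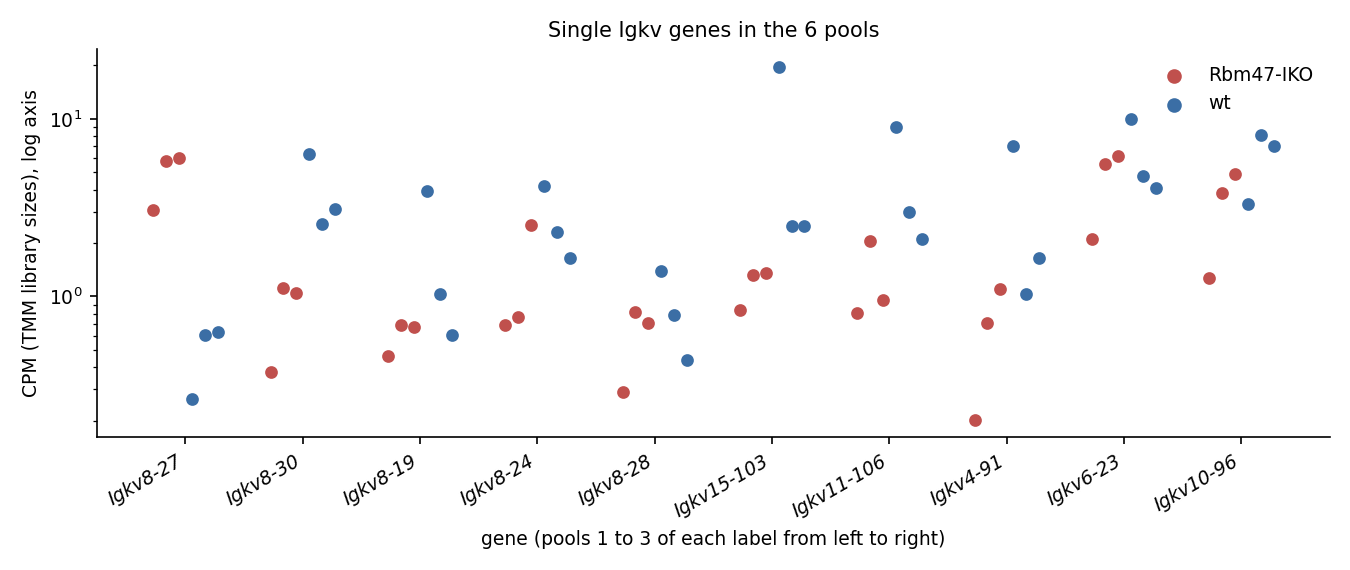
CPM on a log axis of 5 genes of family 8 and of 5 other abundant Igkv genes (x axis), each point 1 pool, with pools 1 to 3 of each label from left to right. Igkv8-27 is the gene whose 3 pools labelled Rbm47-IKO (3.06 to 6.00 CPM) all lie above the wt pools (0.265 to 0.631 CPM), and Igkv8-30 shows the opposite order.

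Igkv7-33, the only member of family 7 in the tables, showed a similar pattern at low depth and was chosen after its values were seen. It had 8, 19 and 14 counts in the pools labelled Rbm47-IKO and 2, 0 and 2 in the wt pools. The 0 allows a level of up to 0.0790 CPM (3 counts), which covers counting error only. It did not pass the filter, and without that filter its log2 fold change was 3.28 (edgeR adjusted p = 0.0673). Igkv9-124 had 24, 36 and 22 counts in the pools labelled Rbm47-IKO and 16, 20 and 5 in the wt pools (log2 fold change 1.03 ± 0.50 SE, edgeR adjusted p = 0.366).

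Igkv genes with the largest negative fold changes fell into those spread over the wt pools and those driven by 1 of them. Igkv4-86 had 0, 2 and 4 counts in the pools labelled Rbm47-IKO and 13, 24 and 36 in the wt pools, with a log2 fold change of −3.46 ± 0.78 (SE; edgeR adjusted p = 0.0672). Igkv4-50, also named after its values were seen, had 5, 7 and 3 counts against 18, 23 and 20 (log2 fold change −1.96 ± 0.41 SE, edgeR adjusted p = 0.0535). Both were under 10 counts in every pool labelled Rbm47-IKO and passed the filter on low counts only through the wt pools, so their values are given as a description.

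Igkv15-103, a forward-strand gene 2289 kb before Igkc that shared no 50-base window with another transcript, had 29, 50 and 44 counts in the pools labelled Rbm47-IKO. In the wt pools it had 667, 94 and 91 counts. Pool 1 labelled wt stood far above the other 5, and the log2 fold change of −2.80 ± 0.85 (SE; edgeR adjusted p = 0.138) was −1.09 without that pool. Its 667 counts were 15.2% of that pool's Igkv counts (95% exact binomial interval 14.1 to 16.3%).

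The same pool led for 3 more genes with low levels in pools labelled Rbm47-IKO. The entry for Igkv11-106, counted at the position of Igkv19-93, had 28, 78 and 31 counts against 306, 114 and 77 (log2 fold change −1.88 ± 0.62 SE, edgeR adjusted p = 0.172, DESeq2 adjusted p = 0.00960). Igkv4-91 had 7, 27 and 36 counts against 238, 39 and 60 (log2 fold change −2.26 ± 0.84 SE, edgeR adjusted p = 0.230, DESeq2 adjusted p = 0.0191). Igkv4-68 had 5, 23 and 24 counts against 127, 60 and 20 (log2 fold change −1.97 ± 0.78 SE, edgeR adjusted p = 0.259). For Igkv4-91 and Igkv4-68 the groups overlapped. Without pool 1 labelled wt the log2 fold changes of the 3 genes were −1.0, −0.99 and −1.10.

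The genes with the highest mean share over the 6 pools were used in all of them. Igkv6-23 was the first, with length-scaled shares of 6.49, 6.86 and 7.44% in the pools labelled Rbm47-IKO and 7.55, 4.80 and 4.48% in the wt pools. Igkv10-96 followed, with 3.91, 4.70 and 5.85% against 2.52, 8.16 and 7.75%. The other genes of the first 10 were Igkv8-27, Igkv15-103, the Igkv11-106 entry, Igkv6-15, Igkv1-110, Igkv5-48, Igkv1-117 and Igkv12-46. For Igkv6-23 (log2 fold change −0.44) and Igkv10-96 (−0.89) the CPM of the labels overlapped. Igkv1-117 had 42, 93 and 81 counts in the pools labelled Rbm47-IKO and 102, 134 and 120 in the wt pools (log2 fold change −0.67 ± 0.32 SE, edgeR adjusted p = 0.342).

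Dominance was described by the share of the leading gene and by the effective number of genes, the inverse Simpson index, which is the number of equally used genes that would give the same evenness. The leading gene held 10.9, 8.28 and 8.35% in the pools labelled Rbm47-IKO, each time Igkv8-27. In the wt pools it held 14.9% (Igkv15-103), 8.16% (Igkv10-96) and 7.75% (Igkv10-96). The means of 9.18 ± 1.5% and 10.3 ± 3.99% (SD, n = 3) did not differ beyond the spread (exact permutation p = 1). The difference of −1.08 percentage points became 1.22 without pool 1 labelled wt and −2.13 and −2.34 without pools 2 and 3 labelled wt.

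The effective number was 27.7, 32.5 and 33.2 genes in the pools labelled Rbm47-IKO and 19.1, 35.8 and 34.4 in the wt pools. Pool 1 labelled wt was the least even and the other 2 wt pools were the most even of the 6. The difference of the means was 1.4 genes (exact permutation p = 1) and turned to −3.94 genes without that pool. In it 8 genes made up 50% of the Igkv total, against 11 to 14 in the other pools, and its first 5 genes held 40.9%, against 26 to 31.2%. Counts were found for 68, 82 and 80 Igkv genes in the pools labelled Rbm47-IKO and for 81, 84 and 85 in the wt pools. At an equal depth of 1085 Igkv counts these became 68, 74.5 and 74.1 against 67.7, 74.6 and 77.8 genes, so the lower number in pool 1 labelled Rbm47-IKO was matched by pool 1 labelled wt.

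**Figure D3:**
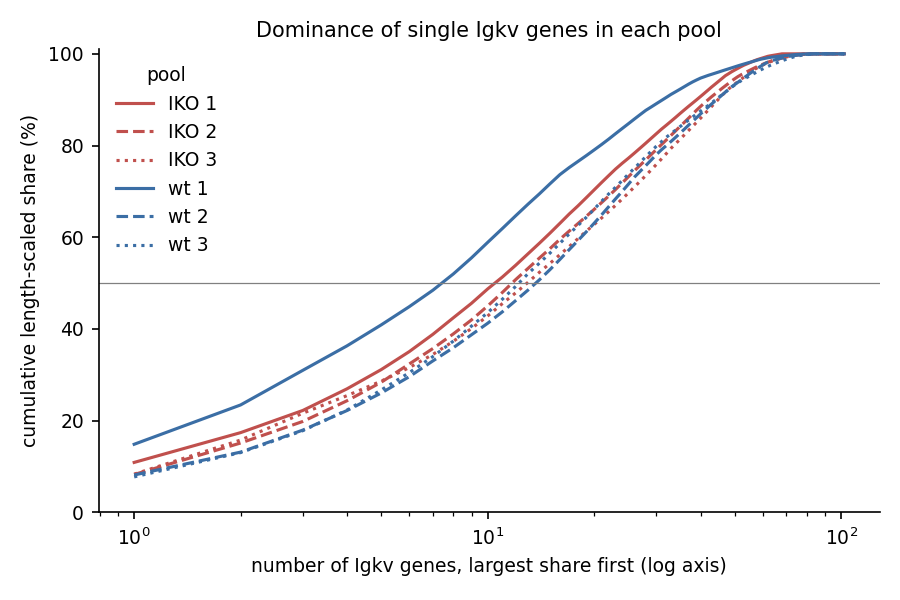
Cumulative length-scaled share (y axis, percent) of the Igkv genes of each pool, ordered by share (x axis, log), with 1 line per pool and a grey line at 50%. Pool 1 labelled wt crosses 50% at 8 genes, and the other 5 pools cross it at 11 to 14.

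Some genes had a high share in 1 pool only. Of the 57 tested, 9 had a share in their highest pool over 2 times that of the next, of which 4 were highest in pool 1 labelled wt, 3 in pool 2 labelled Rbm47-IKO, 1 in pool 1 labelled Rbm47-IKO and 1 in pool 2 labelled wt. Besides the 3 genes of pool 1 labelled wt given above with such a ratio (Igkv15-103, Igkv4-91 and the Igkv11-106 entry), Igkv6-20 and Igkv3-5 stood out in pool 2 labelled Rbm47-IKO. Igkv6-20 had 9, 69 and 5 counts in the pools labelled Rbm47-IKO and 13, 28 and 11 in the wt pools. Its fitted log2 fold change of 0.66 became −1.18 without that pool. Igkv3-5 had 13, 77 and 9 counts against 8, 28 and 15, and its 0.95 became −0.50. Igkv5-39 had a share of 4.84% in pool 1 labelled Rbm47-IKO and 0.790 to 2.12% in the others. In level it was not high there, with 1.30 CPM in that pool, whose Igkv total was the smallest, and 1.38 to 1.59 CPM in the wt pools. Igkv14-100 had 46 counts in pool 2 labelled wt and 2 to 14 in the others. Igkv4-63, with 3, 40 and 28 counts against 8, 19 and 5, had a log2 fold change of 1.18 ± 0.83 (SE; edgeR adjusted p = 0.550).

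Over the 94 Igkv genes with a count, the rank order of shares was similar across pools, while the shares themselves were less so. Spearman's rho was 0.785 to 0.890 between pools of the same label and 0.762 to 0.835 between pools of different labels. Pearson's r of the shares was 0.845 to 0.881 among the pools labelled Rbm47-IKO and 0.912 between pools 2 and 3 labelled wt. It was 0.491 and 0.522 between pool 1 labelled wt and the other wt pools, and 0.393 to 0.685 between pools of different labels. These describe genes that share the library and their length scaling.

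By V family, usage was spread widely. Family 6 held a mean of 16.7% of the Igkv total over the 6 pools, family 4 held 13.4%, family 8 held 12.9% and family 1 held 10.5%. Of the 18 families, 16 passed the filter when genes were summed by family, and none was called, where 2.7% of all features of that fit were called in either direction (edgeR adjusted p of at least 0.138). At an unadjusted p under 0.05 in edgeR there were 3 of the 16 families, against 16.8% of all features, and DESeq2 called 1 of the 15 families with an adjusted p, against 7.89%. Fitted fold changes were below 0 for 14 families and above 0 for family 2 and family 16.

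Family 8 as a whole had 5.23, 9.87 and 11.8 CPM in the pools labelled Rbm47-IKO and 18.0, 9.22 and 7.02 CPM in the wt pools, which overlapped (log2 fold change −0.35 ± 0.41 SE, edgeR adjusted p = 0.770), although Igkv8-27 rose within it. In CPM, with families named by identifier, 5 of the 16 tested families (1, 5, 6, 11 and 15) were lower in every pool labelled Rbm47-IKO. Higher in every such pool were 0. Over all tested genes, 11.6% were lower and 11.7% were higher in this way. Family 15, which is Igkv15-103 alone, was the family with the lowest adjusted p. Family 6 had 6.21, 13.2 and 14.8 CPM against 14.9, 18.3 and 14.9, without overlap by a narrow margin (log2 fold change −0.49 ± 0.30 SE, edgeR adjusted p = 0.482). Family 1 had 3.18, 8.26 and 9.19 CPM against 10.4, 12.6 and 12.1 (log2 fold change −0.77 ± 0.36 SE, edgeR adjusted p = 0.340). Family 11 had 0.809, 2.06 and 1.32 CPM against 9.0, 3.06 and 2.25 (log2 fold change −1.77 ± 0.58 SE, edgeR adjusted p = 0.175). Family 5 had 2.14, 5.54 and 3.40 CPM against 7.97, 6.01 and 7.63 (log2 fold change −0.96, edgeR adjusted p = 0.206).

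As shares, family 2 and family 7 were higher in every pool labelled Rbm47-IKO. Family 2 held 2.91, 4.96 and 2.44% in these pools and 0.940, 1.54 and 2.18% in the wt pools. Family 7 is Igkv7-33, with at most 19 counts in a pool. Family 4, the one with the most members in the tables (27), held 10.4, 12.9 and 16% against 18.0, 12.4 and 10.9%. Naming the 4 entries by their counted position gave 19 families, with Igkv19-93 as a family of its own (log2 fold change −1.88 ± 0.62 SE, edgeR adjusted p = 0.172), and again 0 calls. Family 11 was then left with 1 gene and a mean share of 0.107%, and did not pass the filter.

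**Figure D4:**
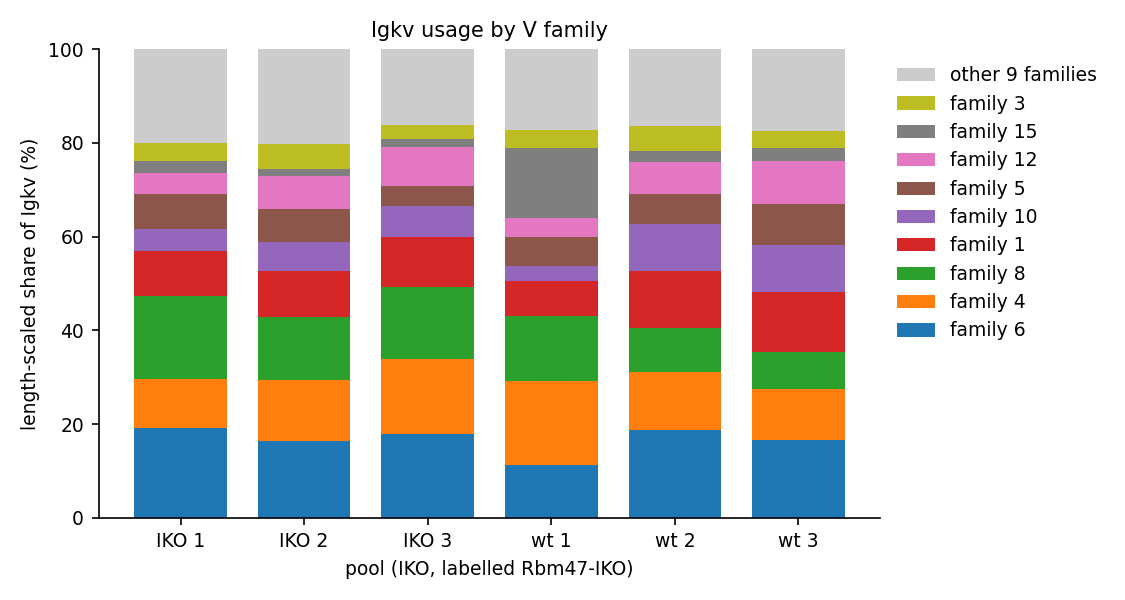
Stacked length-scaled shares (y axis, percent of each pool's Igkv total) of the 9 V families with the highest mean share, with the other 9 families in light grey, for each pool (x axis). Family 8 takes 13.4 to 17.7% in the pools labelled Rbm47-IKO and 7.73 to 13.7% in the wt pools, and family 15 stands out at 14.9% in pool 1 labelled wt.

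Along the locus the Igkv entries span chr6:67555636-70704177, followed by Igkc at chr6:70726435-70726757. They were split into 3 parts of 34 genes each by position, a split made after earlier results of these data were known. The distal part, 1919 to 3171 kb before Igkc, held 36.7, 38.1 and 35.8% of Igkv in the pools labelled Rbm47-IKO and 48.6, 42.2 and 44.9% in the wt pools (means 36.9 ± 1.13% and 45.2 ± 3.26%, SD; exact permutation p = 0.1). The proximal part, up to 868 kb before Igkc, held 46.8, 36.7 and 39.3% against 30.4, 36.3 and 31.1% (exact permutation p = 0.1). Igkv8-27 lies in the proximal part. With that gene left out, the proximal shares overlapped, at 40.3, 31.0 and 33.7% against 30.2, 35.9 and 30.5%. Such a set is made by leaving out the gene that rose, so its shares are given with no test. The distal shares without Igkv8-27 were 41.2, 41.5 and 39.1% against 48.8, 42.5 and 45.2%. They were still without overlap but with a smallest gap of under 1 percentage point. Igkv15-103 and the Igkv11-106 entry, both in the distal part, held 14.9 and 8.57% of Igkv in pool 1 labelled wt. In the other pools they held 1.62 to 2.76% and 1.43 to 3.82%. The distal share without these genes was not tested. Reverse-strand genes held 66.4 to 67.9% in the pools labelled Rbm47-IKO and 63.4 to 64.7% in the wt pools (exact permutation p = 0.1). Without Igkv8-27, a reverse-strand gene, these shares overlapped, at 63.4 to 64.9% against 63.2 to 64.7%, again given with no test.

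**Figure D5:**
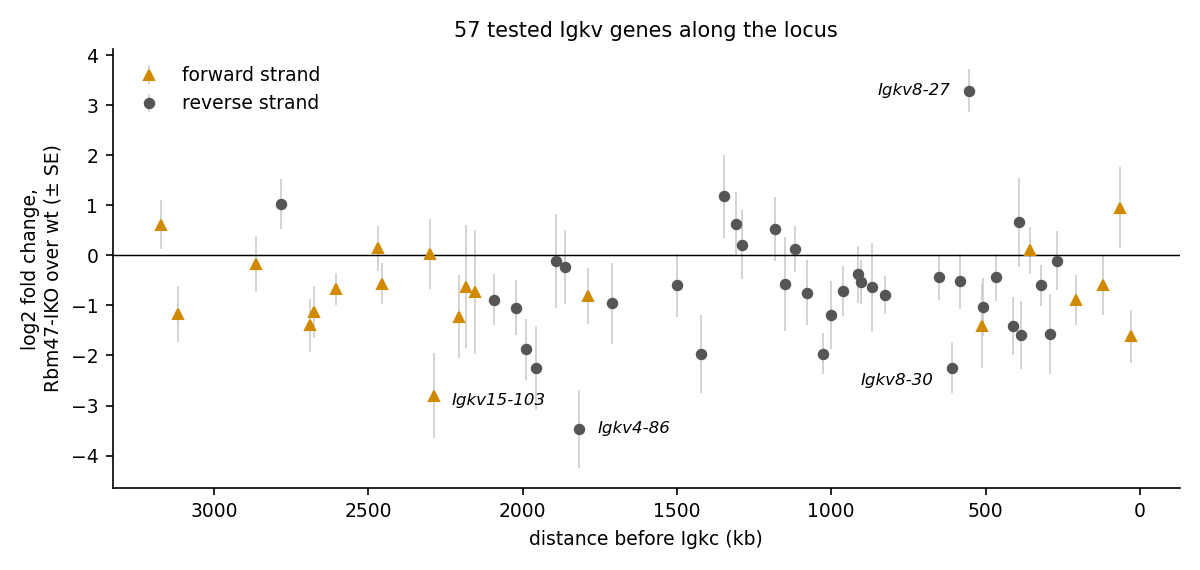
Log2 fold change (pools labelled Rbm47-IKO over wt, ± SE) of the 57 tested Igkv genes against the distance of their midpoint before Igkc in kb, with triangles for forward-strand and circles for reverse-strand genes. Most points lie below 0 along the whole locus (44 of 57), and Igkv8-27 at 3.29 stands apart 554 kb before Igkc.

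Other transcripts of the B lineage were compared beside the Igkv sum, and their part in it was not tested. Of the joining and constant kappa genes, all 5 tested had a log2 fold change below 0 (median −0.82) and 0 were called by edgeR. Over all tested genes 1.45% were called higher and 1.25% lower, so 0 calls in this and the short lists that follow is near the background. The heavy chain constant genes were below 0 in 6 of 6 tested (median −1.31, 0 called), among them Igha, the IgA heavy chain, with 295, 532 and 544 CPM against 870, 475 and 587 (log2 fold change −0.50, edgeR adjusted p = 0.466). Lambda genes were below 0 in 3 of 4 (0 called), and Iglv1 was the exception at 0.41. Mature B cell markers were below 0 in 14 of 14 tested (median −0.80, 0 called), with list sums of 32.1 to 65.8 CPM against 68.1 to 104.

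Of 15 plasma cell markers tested, 12 were below 0 with a median of −0.23, and Jchain, which joins IgA into dimers, had 52.2, 97.2 and 86.9 CPM against 134, 79.7 and 108 (log2 fold change −0.44, edgeR adjusted p = 0.468). Sdc1, a plasma cell surface marker that epithelium also makes, was the 1 gene of the list that rose (log2 fold change 1.21, edgeR adjusted p = 0.0119), where 1.45% of all tested genes rose. The list summed to 565 to 696 CPM in the pools labelled Rbm47-IKO and 585 to 659 in the wt pools. Xbp1 was its largest member, with 175 to 215 CPM over all pools. Sdc1 added 146, 158 and 118 CPM in the pools labelled Rbm47-IKO and 52.9, 67.7 and 62.4 in the wt pools. The overlap of the sums therefore does not describe the 12 markers below 0. No marker of the list was at 0 in all pools. Of the IgA transport and homing genes, 1 of 12 tested fell, where 1.25% of all tested genes did. This was Pigr, the epithelial receptor that carries IgA into the lumen, with 846, 910 and 599 CPM in the pools labelled Rbm47-IKO and 3266, 2218 and 2775 in the wt pools (log2 fold change −1.81, edgeR adjusted p = 0.0102).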

How the data were processed

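RNA-Seq of poly(A)-selected RNA was analysed from 6 pools of small intestinal mucosa, 3 labelled Rbm47_IKO and 3 labelled wt. Per the submitters' processing notes, reads were aligned with STAR 2.5.1a to GRCm38 and assigned to genes with featureCounts 1.4.6-p5 of Subread; strand and multi-mapping settings are not given in the sources used here. The authors deposited for each pool the whole-number count of every gene with its CPM and RPKM. The deposited CPM and RPKM were recomputed from the counts and were not used further. V segments resemble each other and expressed copies can be mutated, so reads can be lost or misplaced, which the tables do not record.

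Gene identifiers were mapped to symbols with GENCODE M21 (36723 of 38561 matched), and Igkv genes were taken by symbol. The members, gene lists and tests were chosen with earlier results of these data known. Counts were tested with edgeR 4.0.16 (TMM, filterByExpr, quasi-likelihood test) in R 4.3.3, with Benjamini-Hochberg adjustment over all 16425 genes tested and a threshold of 0.05. SE was taken as the size of the log2 fold change over the square root of F. Single values per pool were compared by an exact two-sided permutation test over the 6 pools with Python 3.11.15 and SciPy 1.17.1. Shares are counts per kilobase of the deposited gene length. Intervals and floors (3 counts) cover counting error only.

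Named were Igkv genes past the threshold, the 10 with the highest mean share, the first 3 of each pool, the 5 with the largest fold change each way, and the 5 with the largest ratio of the highest to the second pool. Igkc, Jchain, Igha, Rbm47 and called members of the gene lists were named too. Alternatives were DESeq2 1.42.0, limma-voom 3.58.1, other scalings and filters, a replicate block and each pool left out. On simulated counts for this comparison, 200 changed genes were drawn from all tested genes, and 16174 genes passed the filter again. Of the changed genes among these, 32.3% with 2-fold and 77.1% with 4-fold changes were called, and 12.5% of calls were unchanged genes. These rates cover genes of all levels, so they do not describe low-count Igkv genes or genes high in 1 pool. To check for duplicate libraries, pools of one label were compared with sampling noise (chi-square per degree of freedom 3.60 to 21.0 over Igkv genes, 19.6 to 68.7 over all genes), and each was kept as a replicate. In the region, 2 identifiers without a symbol in the annotation (212 counts in all) were not used.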

Additional observations from a re-analysis of the deposited data

How the results depend on the processing

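Igkv8-27 kept a log2 fold change of 2.99 to 3.54 in all settings run and was called in all but those without pool 2 labelled Rbm47-IKO and without pool 3 labelled wt, so leaving out a pool gave 0 to 1 genes called higher. Igkv genes called lower were 0 in the fit as reported, 3 with DESeq2 (Igkv11-106, Igkv4-91, Igkv8-30), 1 with upper quartile factors and 1 with library size only (Igkv4-50 in both), and 2 with no filter beyond 1 count (Igkv4-86 and Igkv8-30). Over all genes 1132 were called with DESeq2, 533 with upper quartile factors, 614 with library size only and 473 with no filter, against 443 as reported. DESeq2 called 1 family lower. Leaving out a pool moved the difference in leading share to −2.34 to 1.22 percentage points and in effective number to −3.94 to 4.41 genes, with the sign turned without pool 1 labelled wt. The summed Igkv log2 ratio stayed at −0.93 to −0.40. Reversed were Igkv6-23 (0.068 without pool 1 labelled wt, lowest −0.70), Igkv3-5 (−0.50 to 1.47) and Igkv6-20 (−1.18 to 1.14, and −0.0092 with limma-voom). Rbm47 was past the threshold with DESeq2 (0.42, adjusted p = 0.00942) and with library size only (0.41, adjusted p = 0.0473). The cause was not tested for any of these. Families named by counted position, a setting chosen after seeing the data, gave 0 calls. Of the alternative fits of the Igkv genes named by the rule, 298 kept direction and call, 5 newly passed the threshold, 2 lost it and 4 turned sign, and 6 with DESeq2 had no adjusted p.

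Same-numbered pools correlated in their deviations at r = 0.41, −0.0026 and −0.28, and pools of different numbers at −0.54 to 0.48. With 3 pools per label these deviations are tied to each other, so they cannot decide whether same-numbered pools belong together. With the replicate block, 1 Igkv gene was called higher and 0 lower, the summed log2 ratio was −0.83 (exact sign-flip permutation, p = 0.25, the smallest it can give), and calls over all genes went from 443 to 100. Pool 1 labelled Rbm47-IKO has 1085 Igkv counts, the fewest of the 6, so shares in it carry the widest counting error.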

Other observations

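Heavy chain V genes (Ighv) summed to 51.9, 120 and 117 CPM in the pools labelled Rbm47-IKO and 160, 117 and 132 CPM in the wt pools, with overlap (log2 ratio of means −0.51). Lambda V gene RNA did not follow one direction: Iglv1 had 3.55, 8.11 and 14.1 CPM against 6.29, 5.19 and 7.82, and Iglv3 had 0.289, 0.660 and 0.582 against 1.26, 1.58 and 1.62 (log2 fold change −1.54, edgeR adjusted p = 0.0856). Ighg2b, an IgG heavy chain gene, had 4.79, 10.6 and 7.99 CPM against 11.5, 60.2 and 56.1 (log2 fold change −2.45, edgeR adjusted p = 0.0778).

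Genes of V(D)J recombination did not pass the filter in any of 6 cases, and their summed level was 0.0578 to 0.949 CPM over the 6 pools. Of the other lists, 0 genes were called by edgeR among 10 germinal centre, 11 T cell, 10 macrophage and dendritic cell, 10 enterocyte, 6 smooth muscle and 5 Peyer's patch genes tested, with median log2 fold changes of −0.45, −0.12, −0.12, −0.04, 0.37 and −0.48. Over all tested genes 1.45% were called higher and 1.25% lower, so 0 calls in lists of this length is near the background.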
